A study of Mus musculus with 4 samples.

Results

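Genes named *Zfp* followed by a number make up a large name family of zinc finger proteins in the mouse. The members described here are all genes whose name in the deposited tables is *Zfp*, digits and at most 1 letter, with *Zfp42* and *Zfp352* left out. The rule found 204 names. For 6 of them the authors' expression estimate had failed (*Zfp229*, *Zfp266*, *Zfp322a*, *Zfp518a*, *Zfp568* and *Zfp592*), which left 198 members among 9779 genes with a value. The rule reads names and whether an estimate had failed, and uses no expression level. It was set with earlier results of these data known, so the choice was not blind to them.

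Expression was measured by RNA-Seq in LF2 cells, a female mouse line of embryonic stem cells (ESCs) from the 129/J strain. The line was grown on feeder cells and taken off them for 2 passages. The cells were then cultured for 24 hr under 4 conditions: PBS+DMSO, the vehicles alone; PBS+GSK-J4, with 10 µM of an inhibitor of JmjC histone demethylases; AA+DMSO, with 50 µg/ml L-ascorbic acid (AA); and AA+GSK-J4, with both agents. Every condition is 1 library of the same line, so no replicate spread exists, no test was run, and a difference describes these libraries only. The study asked how blocking demethylation of histone H3 lysine 27 changes expression in undifferentiated cells, with and without AA, which can raise the activity of such enzymes.

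A C2H2 zinc finger is a short protein fold in which 2 cysteines and 2 histidines hold a zinc ion. Arrays of such fingers read DNA sequence, and some single fingers bind RNA or protein instead. Many *Zfp* genes also encode a KRAB domain, which recruits the corepressor Trim28 and, through it, the H3K9 methyltransferase Setdb1. KRAB zinc finger genes lie in tandem clusters and are known in ES cells for silencing retroelements and keeping imprints.

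The coding sequence of the first finger is shown for 5 members with large differences between the GSK-J4 and DMSO libraries, and for *Zfp101* as an example of a KRAB-like member from a tandem array, since the spacing of the metal-binding residues sets the fold. Each run is 5′ to 3′ on the coding strand, from the GENCODE M21 transcripts of the GRCm38 build, and capitals mark the codons of the 2 cysteines and 2 histidines. *Zfp57* and *Zfp101* have a KRAB-like stretch, and the other members shown do not.
Zfp57: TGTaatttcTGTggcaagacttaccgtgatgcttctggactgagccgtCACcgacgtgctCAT
Zfp101: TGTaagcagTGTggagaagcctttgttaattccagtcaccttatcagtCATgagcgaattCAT
Zfp131: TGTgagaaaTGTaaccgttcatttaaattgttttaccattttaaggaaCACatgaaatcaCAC
Zfp207: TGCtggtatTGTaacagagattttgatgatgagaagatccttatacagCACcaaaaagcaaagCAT
Zfp362: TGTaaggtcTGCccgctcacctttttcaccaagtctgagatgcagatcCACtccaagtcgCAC
Zfp385a: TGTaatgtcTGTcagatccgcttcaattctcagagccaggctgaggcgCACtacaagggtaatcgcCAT
The run spans 63 bases in *Zfp57*, *Zfp101*, *Zfp131* and *Zfp362*, 66 in *Zfp207* and 69 in *Zfp385a*, and the added codons lie between the histidines. *Zfp365* and *Zfp750*, with the highest GSK-J4 ratios among the members, hold no match to this spacing and therefore have no run here.

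The members were mostly weakly expressed. FPKM, a fragment count scaled by exon length and by the mapped fragments of the library, had a median over members of 3.51 in DMSO against 3.23 in GSK-J4 without AA and 3.38 against 3.37 with AA. The median of the mean over the 4 libraries was 3.41 for members and 7.99 for all genes. Of the members, 25 had a mean below 1 FPKM, 97 lay between 1 and 5, 66 between 5 and 20, and 10 at 20 or more. The last class held 5.05% of members and 27.3% of all genes. Together the members took 0.423% to 0.463% of the summed FPKM of a library.

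The libraries held ES cell markers at high levels: 7 of 8 listed markers had a value, none at 0, and their summed FPKM was 2235 and 2013 in the DMSO libraries and 1329 and 1185 in the GSK-J4 libraries. Of the 8 listed markers of feeder fibroblasts, 4 had a value, none of those at 0, and summed to between 13.2 and 19.1 FPKM, with the 2 GSK-J4 libraries highest. The part of either shift in the results below was not tested. The summed FPKM of all genes was 360621 and 342327 in the DMSO libraries and 275575 and 271205 in the GSK-J4 libraries. In bulk samples such as these, fewer cells of a type and less RNA per cell cannot be told apart. The tables give no read counts, so the depth is unknown.

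Ratios below are log2 of (FPKM + 1) in one library over (FPKM + 1) in the other, where 1 is a 2-fold change on that scale, and this understates the change of weakly expressed genes. Where 4 FPKM values follow each other, their order is PBS+DMSO, PBS+GSK-J4, AA+DMSO and AA+GSK-J4, and 2 GSK-J4 ratios are given without AA first and then with AA. Without AA, 5 of 198 members were at least 2-fold higher with GSK-J4, where 4.66% of all genes were, and 6 were at least 2-fold lower, where 3.29% of all genes were. With AA, 6 were at least 2-fold higher against 3.86% of all genes, and 5 at least 2-fold lower against 3.16%. In percent, the members' counts correspond to 2.53% and 3.03% without AA and to 3.03% and 2.53% with AA. Each share of the members was below that of all genes. The gap was largest for higher members without AA, and the other shares were near those of all genes.

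The median ratio of the members was -0.14 without AA and -0.04 with AA, beside -0.15 and -0.13 for all genes. The spread over members (SD) was 0.48 and 0.47, beside 0.59 and 0.56 for all genes. Without AA 124 members were lower and 74 higher, and with AA 104 were lower and 93 higher. These comparisons share no library. In the 2 together, 140 members had the same sign, 55 of them higher and 85 lower, and 57 moved opposite ways. Over all genes, 8239 of 9779 had the same sign. From 1 to 5 FPKM, 63 of 97 members and 2146 of 2784 other genes did. The median over all genes lay below 0 in both comparisons, and scaling to the same total raised it by 0.32 without AA and 0.27 with AA. The members' median then turned to 0.16 and 0.21, and the counts at 2-fold to 6 higher and 1 lower without AA and 8 higher and 2 lower with AA. Directions below are as deposited unless stated.

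The values in both GSK-J4 libraries lay above both DMSO libraries for 39 members (19.7%), where this held for 27.4% of all genes. They lay below both DMSO libraries for 76 members (38.4%), where it held for 48.7% of all genes. At least 2-fold in the same direction in both comparisons, 4 members were higher, where 2.89% of all genes were, and 2 were lower, where 1.69% of all genes were. The 4 are *Zfp365*, *Zfp750*, *Zfp385a* and *Zfp362*, and the 2 are *Zfp131* and *Zfp207*. With a pseudocount of 5, *Zfp365* alone of these 6 was past 2-fold in both comparisons. Centred on the median of all genes, divided by the upper quartile and scaled to the same total, *Zfp207* had -0.98, -0.86 and -0.79 with AA, within 2-fold each time.

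**Figure D1:**
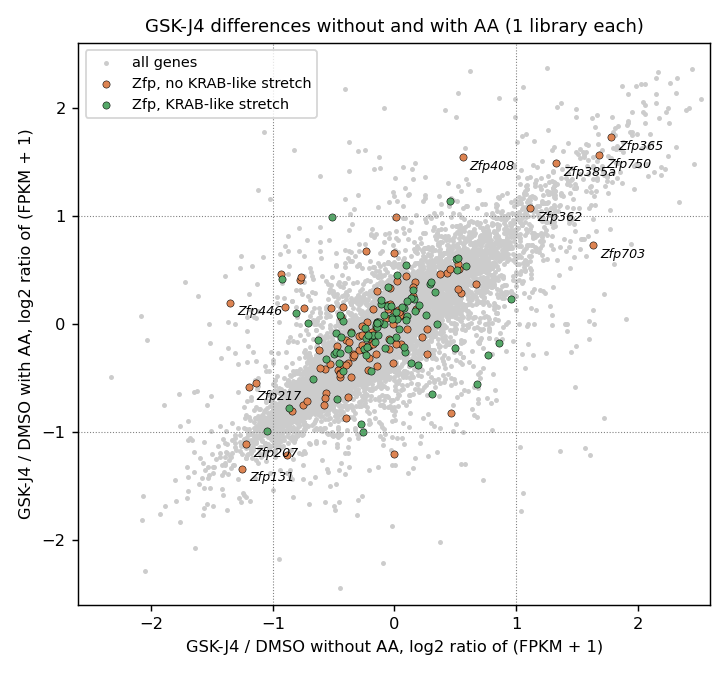
GSK-J4 over DMSO log2 ratios of (FPKM + 1) without AA (x axis) and with AA (y axis), 1 library per condition. Grey points are all genes, of which 14 lie outside the axes; coloured points are the 198 members by KRAB-like stretch; dotted lines mark 2-fold. *Zfp365*, *Zfp750*, *Zfp385a* and *Zfp362* sit beyond the 2-fold lines of both comparisons at upper right, and *Zfp131* and *Zfp207* at lower left.

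*Zfp365*, which is known for guarding genome stability, lies at chr10:67886077-67912695 (mm10) on the minus strand. It had 8.29 FPKM in DMSO against 30.95 in GSK-J4 without AA and 7.50 against 27.17 with AA. Both GSK-J4 libraries were high and both DMSO libraries low, with ratios of 1.78 and 1.73 without and with AA. *Zfp750*, a regulator of epidermal differentiation, had 2.62 FPKM in DMSO against 10.65 in GSK-J4 without AA and 2.30 against 8.75 with AA, with ratios of 1.69 and 1.56.

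*Zfp385a*, a p53 target that binds RNA, had 5.23, 14.65, 3.34 and 11.15 FPKM, and its ratios were 1.33 and 1.48. *Zfp362*, a gene with 6 finger patterns, had 2.08, 5.70, 1.90 and 5.09 FPKM, with ratios of 1.12 and 1.07. In these genes no GSK-J4 library overlapped a DMSO library, and the direction held under centring on the median of all genes, division by the upper quartile and scaling to the same total. Without AA, the ratio of *Zfp365* was 1.93 when ratios were centred on the median of all genes and 2.14 when libraries were scaled to the same total.

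*Zfp703*, a corepressor partner known in breast development, was listed at 0 FPKM in PBS+DMSO and had 2.11 with GSK-J4, and with AA it had 0.18 in DMSO and 0.95 with GSK-J4. *Zfp408* had 0.55 and 1.29 FPKM without AA, and with AA was listed at 0 in DMSO and had 1.90 with GSK-J4. Both were higher with GSK-J4 in either comparison, but each passed 2-fold in only 1, and a gene at 0 gives no fold. *Zfp28*, with a KRAB-like stretch, passed 2-fold with AA alone, at 0.91 FPKM in DMSO and 3.19 in GSK-J4, beside 2.21 and 3.41 without AA. It was chosen for mention after its values were seen.

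*Zfp207*, which loads the checkpoint protein Bub3 onto kinetochores, had 64.26 FPKM in DMSO against 26.94 in GSK-J4 without AA and 50.41 against 22.78 with AA. Both GSK-J4 libraries were below both DMSO libraries, with ratios of -1.22 and -1.11. *Zfp131*, a BTB domain transcription factor, had 6.47 and 2.13 FPKM without AA and 12.23 and 4.22 with AA, and the ratios were -1.25 and -1.34. The *Zfp131* value was lower with GSK-J4 in each pair and higher with AA in each pair.

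*Zfp57*, the KRAB protein that keeps methylation at imprinting control regions, was the most highly expressed member and lies at chr17:37002387-37010627. It had 134.18 FPKM in DMSO against 64.23 in GSK-J4 without AA and 134.17 against 67.00 with AA. The PBS and AA libraries were almost level, and the GSK-J4 libraries stood at 0.479 and 0.499 of their DMSO libraries, with ratios of -1.05 and -0.99. *Zfp57* lay just inside 2-fold without AA and just outside with AA. Scaled to the same total, its ratios were -0.67 and -0.66, and *Zfp131* and *Zfp207* also came within 2-fold without AA.

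*Zfp428* had 44.61, 23.68, 38.81 and 16.20 FPKM, with ratios of -0.89 and -1.21. *Zfp217*, a corepressor partner of the demethylase Lsd1, had 2.64, 0.58, 5.34 and 3.22 FPKM and ratios of -1.20 and -0.59. *Zfp637* had 5.05, 1.75, 6.80 and 4.32 FPKM and ratios of -1.14 and -0.55. All 3 were lower in both GSK-J4 libraries than in the matching DMSO library, but *Zfp217* in AA+GSK-J4 lay above its level in PBS+DMSO. Near the 2-fold line, *Zfp445* had 0.96 and *Zfp516* -0.94 without AA, and *Zfp940* had 0.99 and *Zfp59* -1.005 with AA. *Zfp59* had 7.63, 6.23, 14.43 and 6.69 FPKM, and its AA+DMSO library stood apart from the rest. *Zfp185*, with 4.71, 8.08, 5.61 and 7.52 FPKM, was higher in both GSK-J4 libraries, at 0.67 and 0.37.

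**Figure D2:**
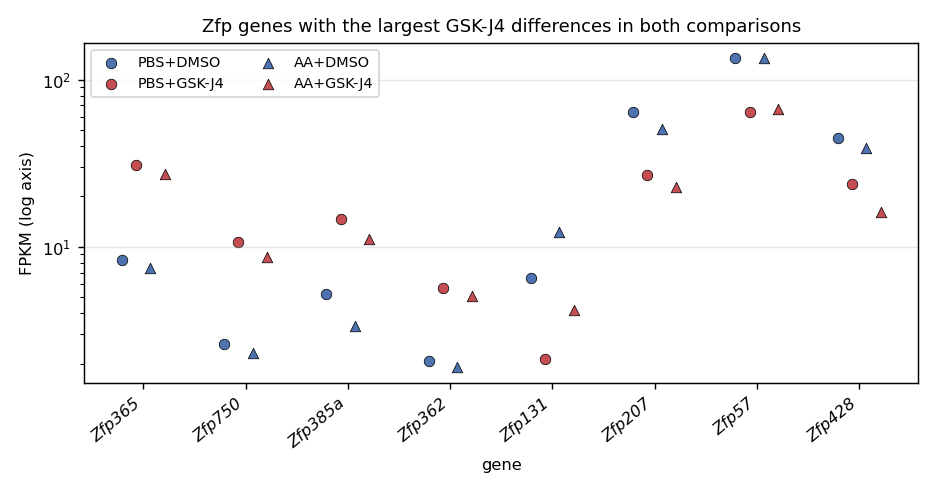
FPKM (log axis) of 8 members in each library. Blue points are DMSO and red points GSK-J4 libraries, circles PBS and triangles AA, 1 library per point. Both red points lie above both blue points for *Zfp365*, *Zfp750*, *Zfp385a* and *Zfp362* and below them for the other 4, such as *Zfp57* with 134.18 against 64.23 FPKM without AA.

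To show where transcription of the most changed members starts, RefSeq promoters (GRCm38.p6, 250 bases before to 50 after the start) are given for *Zfp365*, the member with the highest mean ratio, and *Zfp207*, a member low in both comparisons. The *Zfp365* promoter is chr10:67912613-67912912 on the minus strand and that of *Zfp207* is chr11:80383029-80383328 on the plus strand. Capitals mark matches to the motifs searched on both strands: GGGCGG (GC box), CACGTG (E box), TGACGTCA (CRE), TGATGNAAT (CARE) and AAGATGGC (YY1 core).
Zfp365: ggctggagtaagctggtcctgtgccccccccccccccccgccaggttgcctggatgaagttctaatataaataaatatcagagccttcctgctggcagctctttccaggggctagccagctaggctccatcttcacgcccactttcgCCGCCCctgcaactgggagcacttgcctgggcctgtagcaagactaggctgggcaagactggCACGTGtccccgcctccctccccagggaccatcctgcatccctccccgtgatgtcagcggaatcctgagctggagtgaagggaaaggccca
Zfp207: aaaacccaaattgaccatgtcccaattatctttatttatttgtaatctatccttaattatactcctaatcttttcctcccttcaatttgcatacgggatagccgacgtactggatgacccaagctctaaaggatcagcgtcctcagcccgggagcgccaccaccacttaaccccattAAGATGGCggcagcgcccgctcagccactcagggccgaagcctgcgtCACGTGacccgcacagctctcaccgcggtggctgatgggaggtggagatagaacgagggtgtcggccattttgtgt
The *Zfp365* promoter holds a GC box and an E box at an observed-to-expected CpG ratio of 0.289, and the *Zfp207* promoter an E box and a YY1 core match at 0.852. Of the members, 164 had such a promoter, and *Zfp750* and *Zfp362* were not among them. A match is a description of letters and shows no binding.

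The median GSK-J4 ratio fell as the level of genes rose, so members were set beside other genes of the same level. From 1 to 5 FPKM, the median ratio of the 97 members was -0.04 without AA and 0.04 with AA, beside 0.10 and 0.08 for the 2784 other genes. In that range 1 member (1.03%) was at least 2-fold higher without AA and 2 (2.06%) with AA, while 8.23% and 6.54% of the other genes were. From 5 to 20 FPKM the members' medians were -0.23 and -0.13, beside -0.17 and -0.14. At 20 FPKM or more they were -0.56 and -0.57 for 10 members, beside -0.46 and -0.42. Below 1 FPKM the 25 members had medians of 0.01 and 0.08, and the other genes 0.20 and 0.15.

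**Figure D3:**
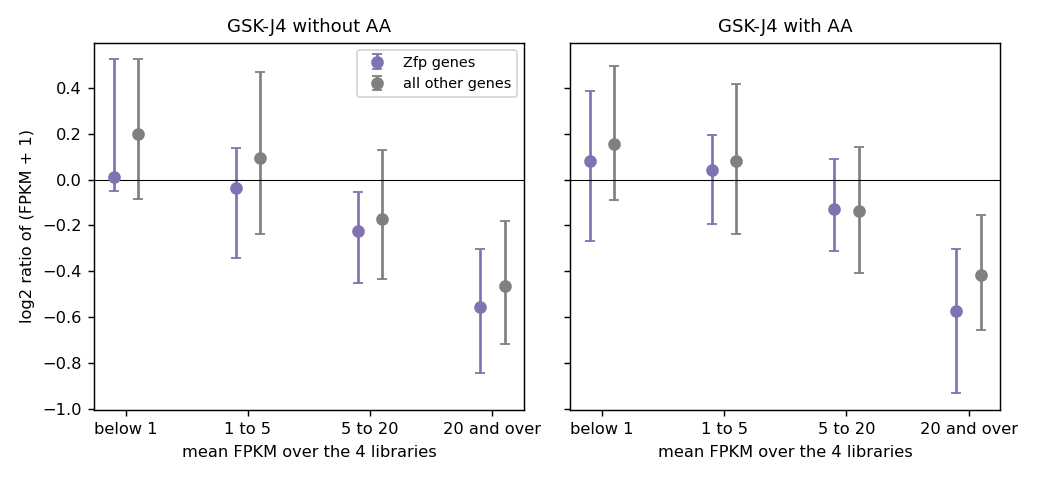
Median log2 ratio of (FPKM + 1), GSK-J4 over DMSO, by mean FPKM over the 4 libraries, for members (purple) and all other genes (grey). Bars span the 25th to 75th percentile over genes and are no error between samples. Both sets fall from low to high level, to -0.56 for members and -0.46 for other genes at 20 FPKM or more without AA.

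Of the 10 members at 20 FPKM or more, 9 were lower with GSK-J4 in each comparison, where 85.3% and 84.5% of the other genes at that level were lower. Scaled to the same total, 6 members were lower without AA and 7 with AA. Besides *Zfp57* and *Zfp207*, they include *Zfp706*, known for restraining self-renewal through Klf4, with 107.67, 74.15, 112.66 and 86.79 FPKM and ratios of -0.53 and -0.37. *Zfp330*, a nucleolar protein, had 68.46, 55.85, 64.16 and 54.16 FPKM, and *Zfp106*, an RNA-binding protein, had 52.62, 41.23, 50.33 and 41.29. Their ratios of -0.29 and -0.24, and of -0.34 and -0.28, turned direction under rescaling of the libraries, so no direction is drawn for them.

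Of the 9 listed regulators of pluripotency and early lineages, 7 had a value, and 6 were lower and 1 higher in both comparisons, where 61.3% and 60.3% of all genes were lower. Scaled to the same total 6 were lower in each, and centred on the median of all genes 5 without AA and 6 with AA. *Zfp143*, a general promoter-binding activator, had 12.18, 6.36, 11.91 and 6.38 FPKM and ratios of -0.84 and -0.81. *Zfp296*, which aids reprogramming to pluripotency, had 26.82, 15.92, 29.55 and 17.60 FPKM and ratios of -0.72 and -0.72. *Zfp423*, a Smad partner, had 13.06, 9.28, 11.62 and 7.96 FPKM with ratios of -0.45 and -0.49. The remaining lower members were *Zfp217*, *Zfp462* and *Zfp281*, the last with at most 0.75 FPKM, and *Zfp703* was the higher one.

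Among the 13 listed factors of RNA, ribosomes and ubiquitin, 12 had a value: 10 lower in the GSK-J4 library without AA, 8 with AA. Over all genes 61.3% and 60.3% were lower. The median level of the list was 12.2 FPKM, and from 5 to 20 FPKM 66.0% and 63.4% of the genes that are not members were lower. Scaled to the same total, 7 and 6 of the 12 were lower. *Zfp622* and *Zfp593* act in assembly of the large ribosomal subunit. *Zfp622* had 41.11, 27.12, 41.73 and 24.35 FPKM with ratios of -0.58 and -0.75, and *Zfp593* had 14.53, 9.43, 14.75 and 8.79 with ratios of -0.57 and -0.69. *Zfp830*, a splicing-associated protein, had 11.89, 8.47, 12.06 and 8.45 FPKM with ratios of -0.44 and -0.47. For *Zfp598*, the ubiquitin ligase of stalled ribosomes, and *Zfp326* the sign differed between the comparisons as deposited. The ratios of both without AA turned direction under rescaling. *Zfp346*, which binds double-stranded RNA, was higher in both comparisons with 0.55 and 0.29. *Zfp91*, a ubiquitin ligase, had 14.89, 10.44, 13.56 and 11.59 FPKM, and its ratio with AA of -0.21 turned direction under rescaling.

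Of the 10 listed partners of corepressor and chromatin complexes, 5 had a value. The GSK-J4 library was the lower one for 4 of them in each comparison, where it was for 61.3% and 60.3% of all genes. *Zfp827* was near 0 in both libraries without AA. Scaled to the same total, 2 and 3 of the 5 were lower. *Zfp687* had 7.15, 4.34, 6.05 and 4.32 FPKM with ratios of -0.61 and -0.41. *Zfp219* and *Zfp451*, the latter a SUMO ligase, had ratios of -0.22 and -0.43, and of -0.04 and -0.14, without and with AA; both turned direction under rescaling in at least 1 comparison. *Zfp827* was within 0.001 of 0 FPKM in 3 libraries and had 1.30 in AA+DMSO. In the list of imprint and retroelement silencing, 3 of 9 had a value: *Zfp57*, *Zfp819* with 3.61, 2.82, 3.76 and 1.51 FPKM, and *Zfp445*, another imprint-keeping KRAB protein, listed at 0 in PBS+DMSO and at 0.95, 0.83 and 1.15 in the rest.

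A KRAB-like stretch was found in the coding sequence of 87 members (43.9%) and not in 111. The KRAB-like members had a median of 11 finger patterns, the others 7, and the range over members ran from 0 to 33, with 7 members at 0. KRAB-like members were more weakly expressed, with a median mean FPKM of 2.43 against 5.01. Without AA their median GSK-J4 ratio was -0.08 with an SD over genes of 0.39, beside -0.18 and 0.55 for the others. With AA it was -0.00429 with an SD of 0.37, beside -0.07 and 0.54.

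Most members past 2-fold had no KRAB-like stretch. Of the 16 members past 2-fold in either comparison, 3 were KRAB-like (*Zfp57*, *Zfp28* and *Zfp59*) and 13 were not. The share of all genes past 2-fold in either comparison was not counted. Without AA, 4.50% of the members without the stretch were higher and 4.50% lower, near the 4.66% and 3.29% of all genes, while 0 and 1 of the 87 KRAB-like members were. With AA, 4.50% and 3.60% of the members without the stretch were, beside 3.86% and 3.16% of all genes. Of the 87 KRAB-like members, 1 was higher and 1 lower with AA. Among members of like level, the spread of the GSK-J4 ratios was narrower from 1 to 20 FPKM, but about equal below 1 FPKM without AA. At 20 FPKM or more only 1 member was KRAB-like. Below 1 FPKM, the SD of KRAB-like members and of the others was 0.54 and 0.55 without AA, and 0.43 and 0.66 with AA. From 1 to 5 FPKM the SD without AA was 0.35 over 56 KRAB-like members and 0.50 over 41 others, and with AA 0.35 and 0.41. From 5 to 20 FPKM it was 0.21 over 18 and 0.57 over 48 without AA, and 0.30 and 0.57 with AA. From 5 to 20 FPKM, 16 of 18 KRAB-like members were lower without AA and 14 with AA, but scaled to the same total only 8 and 3 were. As deposited, 72.9% and 62.5% of the members without the stretch were lower at that level. Of the genes that are not members, 66.0% and 63.4% were. By finger number, 4 of 41 members with 0 to 4 patterns were at least 2-fold higher without AA and 3 lower, and none of 96 with 10 or more were either, where 4.66% and 3.29% of all genes were. With AA, 2 of these 96 were higher and 1 lower, and of the 41 members 3 and 2, beside 3.86% and 3.16% of all genes. The median mean FPKM was 7.01 for 0 to 4 patterns and 2.45 for 10 or more. The classes by finger number were not split by level.

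**Figure D4:**
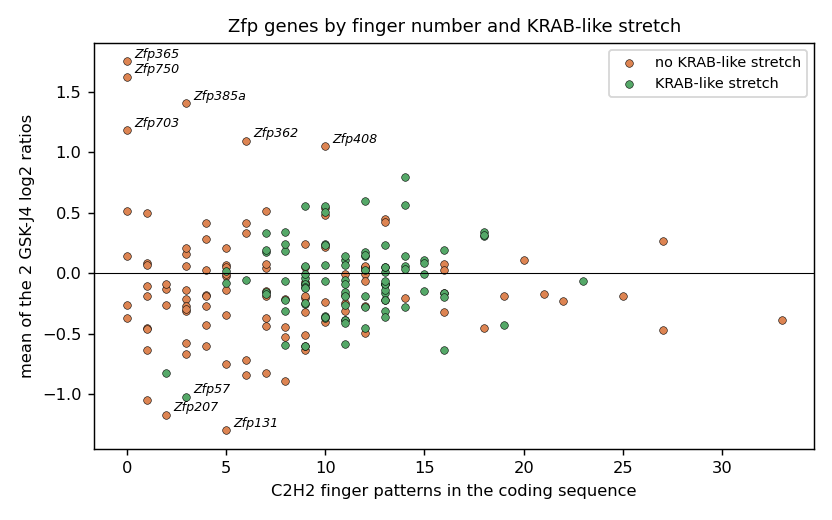
Mean of the 2 GSK-J4 log2 ratios of (FPKM + 1) (y axis) against the number of C2H2 finger patterns in the coding sequence (x axis) for the 198 members, green with and orange without a KRAB-like stretch. *Zfp365*, *Zfp750* and *Zfp703* have no pattern, and *Zfp408*, with 10 patterns, has a mean of 1.05.

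The promoters of the classes also differed in composition. The median CpG observed-to-expected ratio was 0.646 for 76 KRAB-like members with a promoter, 0.817 for 88 others and 0.806 for all genes, and the median GC content was 53.5%, 63.5% and 62.7%. A GC box was present in 47.4% of KRAB-like members, 64.8% of the others and 72.5% of all genes with a promoter. The CRE letters were present in 1.22% of members and 3.62% of all genes, the E box in 7.93% and 12.6%, the CARE in 0.610% and 0.496%, and the YY1 core in 7.93% and 5.44%.

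Genes of the KRAB corepressor pathway were lower with GSK-J4, as were most genes of their level. Of 12 listed genes outside the name family, 8 had a value, and all 8 were lower in both comparisons, with median ratios of -0.61 and -0.58; scaled to the same total, 7 were lower and the medians were -0.23 and -0.25. All 8 had a mean of at least 20 FPKM, and at that level 85.3% and 84.5% of the genes that are not members were lower without and with AA, with medians of -0.46 and -0.42. *Trim28* had 682.17 FPKM in DMSO against 269.64 in GSK-J4 without AA and 607.63 against 264.46 with AA, so its ratios were -1.34 and -1.20. Scaled to the same total, the *Trim28* ratios were -0.95 and -0.86, and *Setdb1* had -0.21 and -0.25. *Setdb1* had 36.15, 23.77, 36.79 and 24.41 FPKM and the chromatin remodeller *Smarcad1* 29.70, 16.06, 29.85 and 16.06. *Dnmt1*, at -0.32 and -0.31, turned direction when libraries were scaled to the same total.

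The members were concentrated on chromosome 7, with 58 (29.3%), and on chromosome 17, with 20. Within 500 kb of each other, 94 members (47.5%) formed 19 neighbourhoods of at least 3, which held 65 of the 87 KRAB-like members (74.7%) and 29 of the 111 others (26.1%). Members in neighbourhoods had an SD over genes of 0.38 in the GSK-J4 ratio without AA, and those outside 0.57. Of the 94, 1 passed 2-fold without AA, where 10 of the 104 outside did (4.81% higher and 4.81% lower). Over all genes 4.66% were higher and 3.29% lower, near the shares of the members outside neighbourhoods. With AA, 1 of the 94 was at least 2-fold higher and 2 lower, and 5 and 3 of the 104 outside were. The shares of all genes with AA were 3.86% and 3.16%, and the SDs of the members were 0.38 in neighbourhoods and 0.54 outside.

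The 2 largest arrays on chromosome 17 differed in direction as deposited. At chr17:32765496-33394642 (mm10) all 10 members were KRAB-like, 2 were higher with GSK-J4 without AA and 1 with AA, and the medians were -0.20 and -0.11, which turned to 0.09 and 0.15 when libraries were scaled to the same total. There *Zfp955a* had 8.42, 5.76, 7.26 and 5.88 FPKM and *Zfp955b*, next to it, 6.61, 4.57, 5.59 and 4.45. Near-identical neighbours can exchange reads in mapping, so these values are uncertain. At chr17:21566939-22867169, 5 of the 6 KRAB-like members with a value were higher without AA and 4 with AA, with medians of 0.12 and 0.16. *Zfp947* there had 2.55 and 4.34 FPKM without AA and 2.61 and 4.22 with AA. These arrays and genes were chosen for mention after their values were seen.

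Other zinc finger families were set beside the members by name. The 30 *Zbtb* genes had median GSK-J4 ratios of -0.25 and -0.28 without and with AA, the 10 *Zc3h* genes -0.27 and -0.23, the 7 *Zscan* genes -0.27 and -0.16, the 12 *Klf* genes -0.10 and -0.11, and the 6 *Zkscan* genes 0.22 and 0.11, beside -0.15 and -0.13 for all genes. Of the 6 *Zkscan* genes none had both GSK-J4 libraries below both DMSO libraries, and 3 had both above, where 48.7% and 27.4% of all genes did. Their median level was 2.45 FPKM, and genes of 1 to 5 FPKM that are not members had medians of 0.10 and 0.08, with both GSK-J4 libraries above in 40.8%.

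Between AA and PBS the members' medians differed little, while their spread and most shares past 2-fold were above those of all genes. The median ratio was -0.06 in DMSO and 0.01 in GSK-J4, beside -0.04 and -0.02 for all genes, with SDs of 0.34 and 0.33 beside 0.26 and 0.26. In DMSO, 2 members (1.01%) were at least 2-fold higher with AA, where 0.511% of all genes were. Another 2 (1.01%) were at least 2-fold lower, where 0.665% of all genes were. In GSK-J4, 5 (2.53%) were at least 2-fold higher against 0.481% of all genes, and 0 lower against 0.562%. From 1 to 5 FPKM, 4 of 97 members (4.12%) were higher in GSK-J4 and 0 lower, beside 1.01% and 0.970% of the other genes. In DMSO at that level 1 member (1.03%) was higher and 1 lower, beside 1.26% and 1.36% of the other genes. The SDs there were 0.34 and 0.36 in DMSO, so the wider spread was not seen at that level. In GSK-J4 they were 0.39 and 0.34. Below 1 FPKM the SDs in DMSO were 0.55 for members and 0.36 for other genes. The AA comparisons share libraries with the GSK-J4 comparisons. No member passed 2-fold in the same direction in both.

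All 9 members past 2-fold had a mean below 5 FPKM. The 4 in DMSO had their highest or lowest value in AA+DMSO. The 5 higher ones in GSK-J4 (*Zfp217*, *Zfp280c*, *Zfp420*, *Zfp446* and *Zfp516*) had their lowest value in PBS+GSK-J4. *Zfp280c* had 2.44 FPKM in DMSO against 0.84 in GSK-J4 without AA and 4.31 against 4.93 with AA. *Zfp800* had 1.69, 1.69, 0.06 and 0.67 FPKM and *Zfp940* had 1.67, 0.87, a listed 0 and 0.99, both lowest in AA+DMSO.

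Of the 3 members with the largest mean AA ratio in each direction, *Zfp940* differed in direction between the comparisons, at -1.42 in DMSO and 0.09 in GSK-J4, and the others did not. *Zfp131* had AA ratios of 0.82 in DMSO and 0.74 in GSK-J4, *Zfp217* 0.80 and 1.41, and *Zfp280c* 0.62 and 1.68. *Zfp770* had 3.60 and 1.99 FPKM without and with AA in DMSO and 5.61 and 3.38 in GSK-J4, with AA ratios of -0.62 and -0.59, and *Zfp800* had -1.34 and -0.68. With 1 library per condition, a chance difference at these levels cannot be told apart from a treatment difference.

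**Figure D5:**
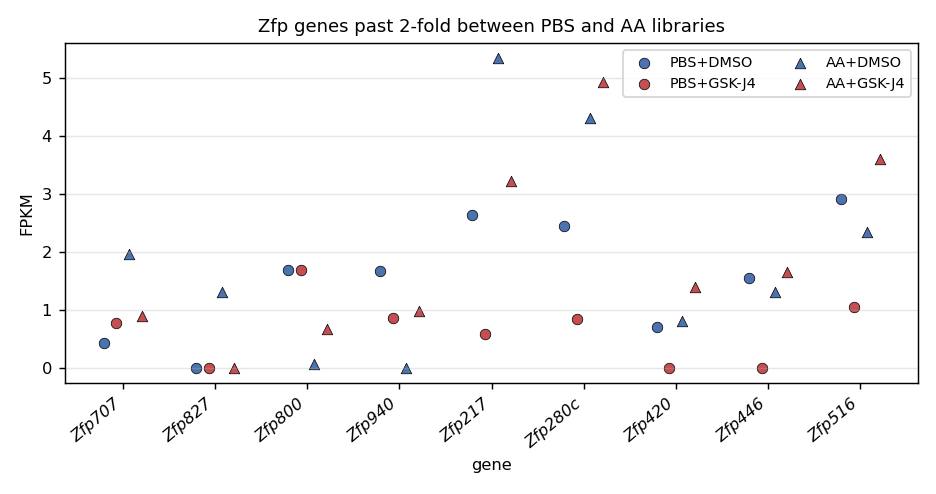
FPKM of the 9 members past 2-fold between AA and PBS libraries. Blue points are DMSO and red points GSK-J4 libraries, circles PBS and triangles AA, 1 library per point. The highest value is 5.34 FPKM, for *Zfp217* in AA+DMSO, and *Zfp420* and *Zfp446* are near 0 in PBS+GSK-J4.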

How the data were processed

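Total RNA of 4 mouse ES cell libraries, 1 per condition, was sequenced as single-end reads. Per the paper's methods and the labels, the authors removed duplicate reads, aligned to mm10 with TopHat2, estimated expression with Cufflinks2 and CummeRbund, and worked through Genome Explorer and Maser. How reads that fit several genes were shared, and what scaling was applied between libraries, is not given in the sources used here. The FPKM values were deposited by the authors in 2 tables of 11033 coding sequence groups. The columns named as log10 hold linear FPKM: the log2 ratio of the deposited columns differed from the authors' fold change by at most 0.00417. Their fold change, p-value and q-value columns were otherwise not used.

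For each gene, FPKM was added up across its coding sequence groups (23 members have more than 1), and genes with a failed estimate were left out. Ratios used a pseudocount of 1, no filter on low values and a 2-fold threshold. With 1 library per condition no test was run, and members were described beside all genes and beside other genes of the same mean FPKM. The ratio code was tested on simulated data.

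All 198 members had a coding sequence in GENCODE M21, which was translated to count C2H2 patterns (C-X2-4-C-X12-H-X3-5-H) and to search for a KRAB-like stretch of 12 scored positions with at most 2 mismatches. Members within 500 kb formed a neighbourhood. Promoters were RefSeq entries of GRCm38.p6; a gene counted for a motif where any of its promoters held it, and its highest CpG ratio was taken.

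Named genes were the members at 2-fold in the same direction in both GSK-J4 comparisons, the 6 with the largest mean GSK-J4 ratio each way, the 5 most highly expressed, the 3 with the largest mean AA ratio each way, the 3 with the largest difference between the GSK-J4 ratios each way from a mean of 5 FPKM, listed role genes from a mean of 5 FPKM, and those next to the threshold. The members, lists and rules were chosen with earlier results of these data known. Alternatives were other pseudocounts, scalings, thresholds, filters and name rules. Python 3.11.15, pandas 2.3.3 and numpy 2.4.6 were used.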

Additional observations from a re-analysis of the deposited data

Results flagged for a closer look

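Among the members named by rule, 6 had GSK-J4 over DMSO log2 ratios of (FPKM + 1) of at least 0.1 in size and opposite in direction without and with AA. *Zfp326*, at -0.23 and 0.02, was opposite below that size, and *Zfp516*, which is named for lying next to the 2-fold line, had -0.94 and 0.46. Of all 9779 genes 8239 had the same sign, and of the 198 members 140 did. Among the members 57 moved opposite ways, so the rule leaves out others. Among those is *Zfp446*, with -1.35 and 0.20 and a value near 0 FPKM in PBS+GSK-J4. No test of the change in direction was possible, as each condition is 1 library, so these differences were not tested. *Zfp940* had -0.52 without AA and 0.99 with AA, a difference of 1.51, and it was listed at 0 FPKM in AA+DMSO. *Zfp280c* had -0.90 and 0.16, a difference of 1.06. *Zfp146* had -0.24 and 0.67 (0.91), and *Zfp746*, a repressor targeted by the ubiquitin ligase parkin, had -0.75 and 0.15 (0.89). *Zfp518b* had -0.52 and 0.14 (0.66), and *Zfp598* -0.14 and 0.31 (0.45). Without AA, *Zfp598* had 0.01 centred on the median of all genes, 0.13 divided by the upper quartile and 0.22 scaled to the same total. *Zfp146* without AA had 0.006 divided by the upper quartile and 0.095 scaled to the same total. For *Zfp598* and *Zfp146* the opposite direction depends on the scaling, so no change of direction is drawn for them.

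The FPKM of *Zfp146* was 6.47 in DMSO against 5.34 in GSK-J4 without AA and 5.75 against 9.75 with AA, so that only the last library stood apart. Over all members the ratio with AA minus that without AA had a median of 0.07 and an SD over genes of 0.43, beside 0.03 and 0.35 for all genes. A difference of at least 1 was found for 12 of 198 members and 240 of 9779 genes. Members were more weakly expressed than other genes. Below 1 FPKM the SD of this difference was 0.71 for members and 0.51 for other genes. It was 0.45 and 0.46 from 1 to 5 FPKM, 0.26 and 0.27 from 5 to 20, and 0.16 and 0.14 at 20 or more. The part of level in the spread was described in this way and was not tested.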

How the results depend on the processing

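With a pseudocount of 0.1, members at least 2-fold higher and lower with GSK-J4 numbered 10 and 14 without AA and 11 and 12 with AA, and 18 and 13 differed between AA and PBS in DMSO and in GSK-J4. With a pseudocount of 5 these were 2 and 2, 1 and 1, and 0 and 0. With a mean of at least 1 FPKM (173 members), 2 differed with AA in DMSO. At 1.5-fold, 11 were higher and 23 lower without AA and 13 and 20 with AA. Centring on the median of all genes turned the members' median without AA to 0.0112, gave 0.0939 with AA and left 3 lower with AA. Division by the upper quartile turned it to 0.0795, with 3 lower, and gave 0.15 and 2 lower with AA. Scaling to the same total turned it to 0.16, with 1 lower, and gave 0.21 and 2 lower with AA. These follow from the shift of all ratios, and the 6 members past 2-fold in both GSK-J4 comparisons kept their direction, though not all kept the 2-fold. Using coding sequence groups, including failed estimates, a wider name rule, levels from the other libraries or an exact KRAB pattern moved no count by over 1.5 times. No paired analysis was possible because each condition is 1 library and the labels give no replicate numbers. The depth of the libraries is unknown, and the 25 members with a mean below 1 FPKM are the least certain.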
